A study of Mus musculus with 24 samples.

Results

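The genes described here are 31 that mark the endothelial cells lining blood vessels, taken as markers of the choroid, the vessel bed behind the retina. They were chosen by symbol, all 31 were found among the 54532 genes of the deposited count table, and all 31 passed the filter on low counts, as did 18065 genes in all. The RNA was taken from RPE (retinal pigment epithelium), a sheet of pigmented cells that lies against the choroid, of wild-type 129S1/SvlmJ mice, an inbred strain, with the Leu450 form of Rpe65. Feed was a standard diet, and 12 h of light, starting at 7 am, alternated with 12 h of darkness. The mice were sampled 0, 1, 3, 5, 6 and 9 h after light onset, in the light, and 15 and 16 h after it, in the dark, with 3 mice at each of the 8 times and 1 library per mouse. No group was mutant or treated. The 24 libraries held 14073440 to 17492470 counts each.

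Endothelial cells hold together through junctions built on VE-cadherin (Cdh5) and, where the barrier is tight, on claudin-5 (Cldn5). Vascular endothelial growth factor and the angiopoietins act on them through the tyrosine kinase receptors Kdr, Flt1 and Tek, and ETS and SOX transcription factors, among them Erg and Sox17, keep up the endothelial program. The inner vessel layer of the choroid, the choriocapillaris, is pierced by pores spanned by Plvap diaphragms, and it lies directly against the RPE, whereas the vessels of the inner retina form a tight barrier.

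Library by library, most of these genes were high or low together. Aplnr and Ramp2 were the exceptions. Ramp2, which forms the adrenomedullin receptor together with Calcrl, had the 1 daily pattern that passed a test, with a fitted maximum near 10 h, and it was not detectably correlated with the vessel adhesion gene Pecam1. With 22 of the libraries, the mean of 27 members was highest at 9 h, and that of 25 was lowest at 6 h and of 5 at 16 h. With these 22 libraries edgeR called 12 members over time, against 15.6% of all genes, and with all 24 it called 0, against 1.08%. The libraries left out are 6 h mouse 3 and 15 h mouse 3, and the count of 12 also moved with the method and with leaving out 1 more library.

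These 2 libraries stood apart over all genes. The leading principal component took up 38.2% of the variance. On it 15 h mouse 3 lay at 200 and 6 h mouse 3 at 49.3, against -25.1 to -3.46 for the other 22. Tests and counts of calls are therefore given with all 24 libraries and with the other 22, while ranges of levels and most correlations are those of the 22. The members took 0.096% to 0.249% of the counts of a library. The tissue label was checked on 8 genes of the RPE, whose summed level was 33400 to 48700 CPM (a gene's counts relative to its library's total, in the usual CPM unit, with TMM factors) in the 22 libraries, while that of the 31 members was 966 to 2430 CPM. Ttr and Rgr, at means of 15700 and 11000 CPM, made up most of the RPE sum, while Best1 was at 3.76 CPM. The choroid in the name of the gene set was not tested: Plvap is a gene of vessels with pores, but 11 of 12 genes of the tight vessels of the retina also passed the filter on low counts, and some of those, such as Slco1c1, are not limited to vessels. In bulk RNA a level is relative to the rest of its library. A lower value can mean fewer endothelial cells in the sample, less RNA per cell or more RNA from other cells. These cannot be told apart.

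Start regions were available from RefSeq (GRCm38.p6, 250 bases before to 50 bases after a start) for 14 of the 31 members, which have 18 of them. They are shown because Erg, itself a member, belongs to the ETS family, whose proteins bind motifs with a GGAA core. The letters CAGGAAG, on either strand, were present in 7 of the 18 regions, those of Cd34, Egfl7, Emcn, Erg, Rasip1 and Robo4, against 13.3% of 32851 start regions of all genes. The related letters CCGGAAG were in 0 of 18, against 8.86% of all. The letters AACAGGAA, which overlap CAGGAAG in Egfl7 and Emcn, were in 2 (2.65% of all), the SOX letters AACAAT in 3 (10.7% of all) and the GATA letters AGATAA in 2 (11.2% of all). Robo4, a receptor that steadies vessels, at chr9:37401722-37402021 on the plus strand, Emcn, a sialomucin of capillaries and veins, at chr3:137340828-137341127 on the plus strand, and Egfl7, a secreted vessel protein, at chr2:26580833-26581132 on the plus strand, are printed 5′ to 3′ with the match to CAGGAAG or to its reverse complement in capitals.
Robo4: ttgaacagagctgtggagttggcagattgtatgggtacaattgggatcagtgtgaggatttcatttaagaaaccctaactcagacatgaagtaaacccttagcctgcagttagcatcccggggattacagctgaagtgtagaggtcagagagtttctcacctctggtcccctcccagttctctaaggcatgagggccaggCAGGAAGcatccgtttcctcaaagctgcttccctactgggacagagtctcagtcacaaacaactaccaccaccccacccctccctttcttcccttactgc
Emcn: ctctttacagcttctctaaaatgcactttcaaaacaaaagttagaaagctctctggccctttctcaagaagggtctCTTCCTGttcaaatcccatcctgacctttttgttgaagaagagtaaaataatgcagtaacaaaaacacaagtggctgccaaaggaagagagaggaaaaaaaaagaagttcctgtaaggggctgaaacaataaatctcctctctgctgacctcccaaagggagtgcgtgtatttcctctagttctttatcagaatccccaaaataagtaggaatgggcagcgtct
Egfl7: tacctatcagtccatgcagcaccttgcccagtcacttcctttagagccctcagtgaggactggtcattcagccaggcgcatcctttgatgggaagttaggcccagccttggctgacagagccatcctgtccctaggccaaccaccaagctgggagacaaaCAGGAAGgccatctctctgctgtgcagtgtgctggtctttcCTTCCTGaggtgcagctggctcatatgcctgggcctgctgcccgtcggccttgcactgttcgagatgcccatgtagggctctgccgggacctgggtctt
A match in these windows is a description of letters and not a measured binding site. Over the 22 libraries the correlation with Pecam1 was 0.84 for Robo4, 0.86 for Emcn and 0.92 for Egfl7. Members with CAGGAAG in a start region lay between 0.81 (Rasip1) and 0.92 (Egfl7). Those with start regions but no CAGGAAG lay between 0.84 (Eng) and 0.94 (Cldn5 and Tek). A link between the letters and the correlation was not tested.

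Compared per kilobase of gene length, the mean level over the 22 libraries was highest for Plvap, the diaphragm protein, at 90.7 CPM per kb. Endoglin (Eng), a coreceptor of the TGF-beta family, followed at 45.0 CPM per kb, then Ramp2 at 26.7, Cldn5 at 24.2 and the transcription factor Sox18 at 20.7 CPM per kb. The apelin receptor Aplnr was lowest at 0.306 CPM per kb and rested on 5 to 38 counts per library. The other 25 lay between 1.81 CPM per kb for Sox7 and 17.2 CPM per kb for Podxl. The highest library exceeded the lowest of the 22 by 1.59-fold for Cd34 to 7.18-fold for Aplnr, with a median of 3.05-fold over the members and 1.84-fold over all genes tested. The biological coefficient of variation between mice of one time was 0.203 at the median of the members (range 0.105 to 0.361) and 0.139 at the median of all genes.

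**Figure D1:**
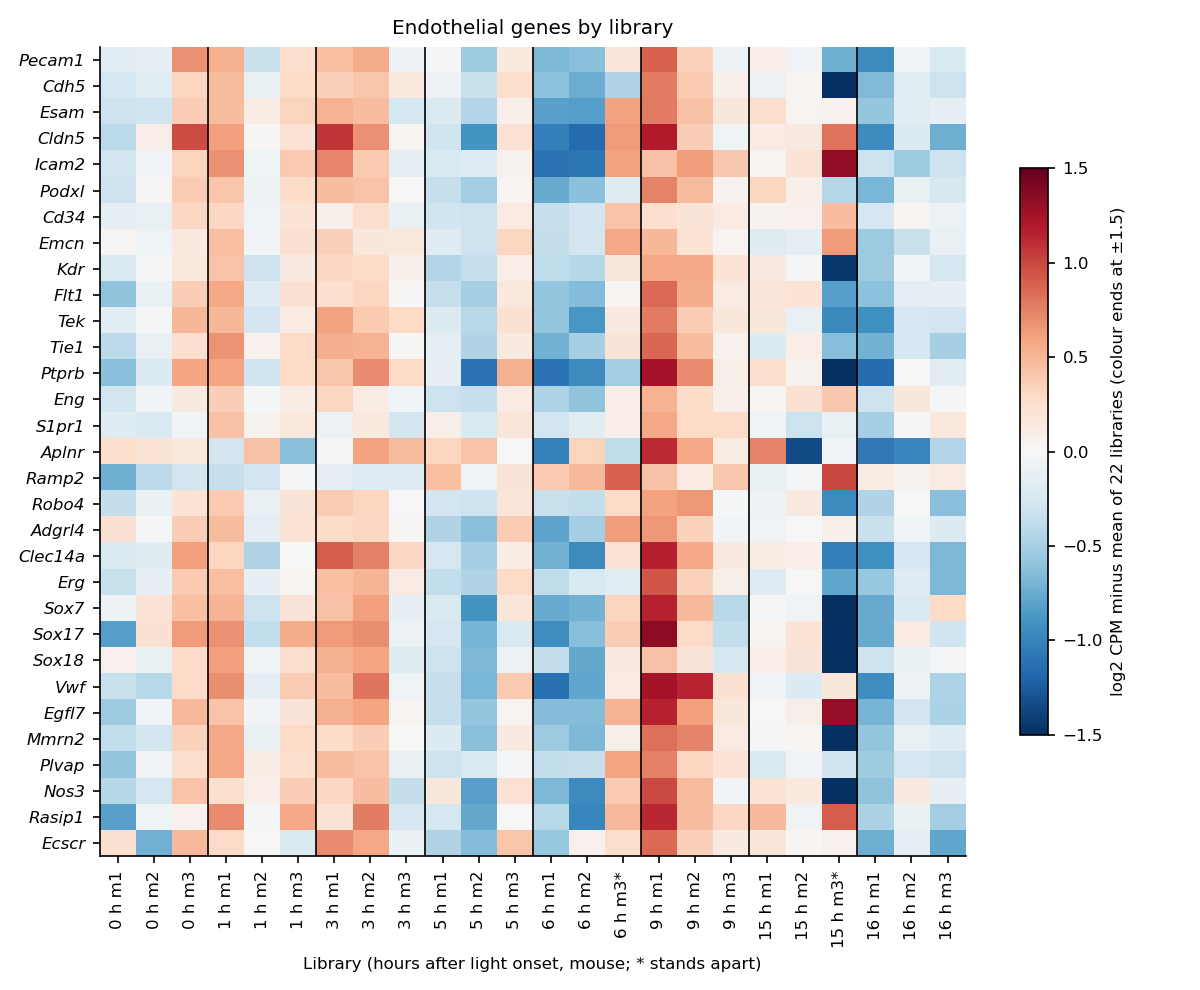
Deviation of each member (rows) from its own mean over 22 libraries, in log2 CPM, in each of the 24 libraries (columns, ordered by hours after light onset and mouse). Most columns are nearly one colour: 9 h mouse 1 is above the mean for all 31 members, 6 h mouse 1 is below it for 30, and the row of Ramp2 is above its mean in all 3 libraries of 6 h.

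The libraries differed as wholes. In 9 h mouse 1 all 31 members were above their mean over the 22 libraries, by a median of 0.82 on the log2 scale, and for 26 of the 31 it was the highest of the 22. All 31 were also above their mean in 9 h mouse 2 (median 0.44), and 30 of 31 in 3 h mouse 2 (0.46). At the low end, 30 of 31 were below their mean in 6 h mouse 1 (median -0.62), in 16 h mouse 1 (-0.60) and in 5 h mouse 2 (-0.50), and 28 of 31 in 6 h mouse 2 (-0.64). The medians over all genes lay between -0.01 and 0.01 in each of the 22 libraries. Mice of one time could therefore lie far apart: the members' summed level was 1105, 1297 and 1737 CPM in the mice of 0 h, and 2433, 1943 and 1539 CPM in those of 9 h. At 1 h it was 1942, 1320 and 1636 CPM, at 3 h 1856, 1859 and 1395 CPM, and at 5 h 1212, 1045 and 1569 CPM. The sums of 6 h were 995.8, 1006 and, in mouse 3, 1712 CPM, those of 15 h were 1432, 1445 and, in mouse 3, 1372 CPM, and those of 16 h were 966.2, 1322 and 1211 CPM. Without 6 h mouse 3, both sums of 6 h lay below all 3 of 9 h and all 3 of 0 h, while those of 16 h overlapped with those of 0 h.

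Pecam1, an adhesion molecule at the contacts between endothelial cells, was at 32.6, 32.7 and 58.4 CPM in mice 1, 2 and 3 of 0 h, and at 52.5, 28.9 and 43.5 CPM at 1 h. It was at 49.9, 53.4 and 34.5 CPM at 3 h and 35.5, 24.9 and 40.1 CPM at 5 h. It was at 22.7, 23.5 and 41.1 CPM at 6 h, 67.2, 46.1 and 34.1 CPM at 9 h, 38.99, 35.02 and 21.8 CPM at 15 h and 18.8, 35.1 and 31.02 CPM at 16 h, the third value of 6 h and of 15 h being that of the library that stood apart. Most times overlapped, but mice 1 and 2 of 6 h lay below all mice of 0, 1, 3, 5 and 9 h and below mice 1 and 2 of 15 h, and the F test over time was not passed (adjusted p = 0.456 with 24 libraries and 0.283 with 22, edgeR). VE-cadherin, Cdh5, was at 30.2, 32.3 and 45.5 CPM at 0 h, 50.6, 33.5 and 44.6 CPM at 1 h and 46.6, 48.6 and 40.3 CPM at 3 h. At 5 h it stood at 34.2, 28.7 and 43.6 CPM and at 6 h at 23.6, 21.6 and 26.5 CPM. Its later values were 62.1, 47.7 and 38.2 CPM at 9 h, 34.02, 36.9 and 6.76 CPM at 15 h and 22.8, 32.1 and 29.1 CPM at 16 h. The 6 h values were the lowest of the light phase, and 15 h mouse 3 lay below every other library. Adjusted p was 0.343 with 24 libraries and 0.0316 with 22. Esam, an immunoglobulin-family protein of tight junctions, was at 16.6, 16.8 and 26.7 CPM at 0 h, 28.8, 22.3 and 26.04 CPM at 1 h and 29.7, 28.4 and 17.2 CPM at 3 h. Esam stood at 17.7, 15.2 and 21.8 CPM at 5 h and 11.7, 11.6 and 31.5 CPM at 6 h. It was at 35.4, 28.02 and 23.3 CPM at 9 h, 24.8, 21.2 and 21.5 CPM at 15 h and 13.8, 18.3 and 19.02 CPM at 16 h. In 6 h mouse 3 it was more than in any mouse of 0 h, whereas mice 1 and 2 of 6 h were the lowest of all, and adjusted p was 0.488 with 24 libraries and 0.0251 with 22.

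Claudin-5, Cldn5, was at 23.2, 32.999 and 60.8 CPM at 0 h, 47.3, 31.2 and 35.99 CPM at 1 h and 64.8, 49.8 and 31.8 CPM at 3 h. The values of Cldn5 were 25.1, 16.6 and 35.8 CPM for 5 h and 15.1, 13.6 and 47.9 CPM for 6 h. At 9 h it was at 70.6, 40.04 and 29.4 CPM, at 15 h at 33.5, 33.96 and 54.6 CPM and at 16 h at 15.98, 26.7 and 18.5 CPM. Mice of one time differed widely, at 0 h and 9 h above all, and neither test over time was passed (adjusted p = 0.396 with 24 libraries and 0.103 with 22). At 6 h against 0 h its log2 fold change was -1.43 (SE 0.49, adjusted p = 0.149) with 22 libraries and -0.61 (SE 0.46, adjusted p = 0.733) with 24. Icam2, an adhesion protein bound by leukocyte integrins, was at 6.29, 7.42 and 9.76 CPM at 0 h, 12.5, 7.38 and 10.2 CPM at 1 h and 12.9, 10.2 and 7.02 CPM at 3 h. At 5 h it stood at 6.596, 6.75 and 8.03 CPM and at 6 h at 3.52, 3.58 and 11.8 CPM. Its later values were 10.5, 12.02 and 10.2 CPM at 9 h, 7.95, 8.94 and 19.6 CPM at 15 h and 6.13, 5.32 and 6.22 CPM at 16 h. Mice 1 and 2 of 6 h lay below all other libraries, 6 h mouse 3 lay above all of 0 h, and 15 h mouse 3 was the highest of the 24. Over time Icam2 varied with 22 libraries (adjusted p = 0.00103) and not with 24 (0.395). Icam2 was lower at 6 h than at 0 h by a log2 fold change of -1.13 (SE 0.25, adjusted p = 0.0142) with 22 libraries, and the same comparison with 24 gave -0.31 (SE 0.39, adjusted p = 0.843). Podxl, Cd34 and Emcn, sialomucins of the luminal surface, ranged over the 22 libraries from 53.7 to 151.9 CPM, 45.9 to 73.0 CPM and 39.7 to 81.9 CPM in that order, and Podxl varied over time with 22 libraries (adjusted p = 0.0448) and not with 24 (0.155). Cd34 (0.142 with 22 and 0.716 with 24) and Emcn (0.0529 and 0.633) did not pass.

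**Figure D2:**
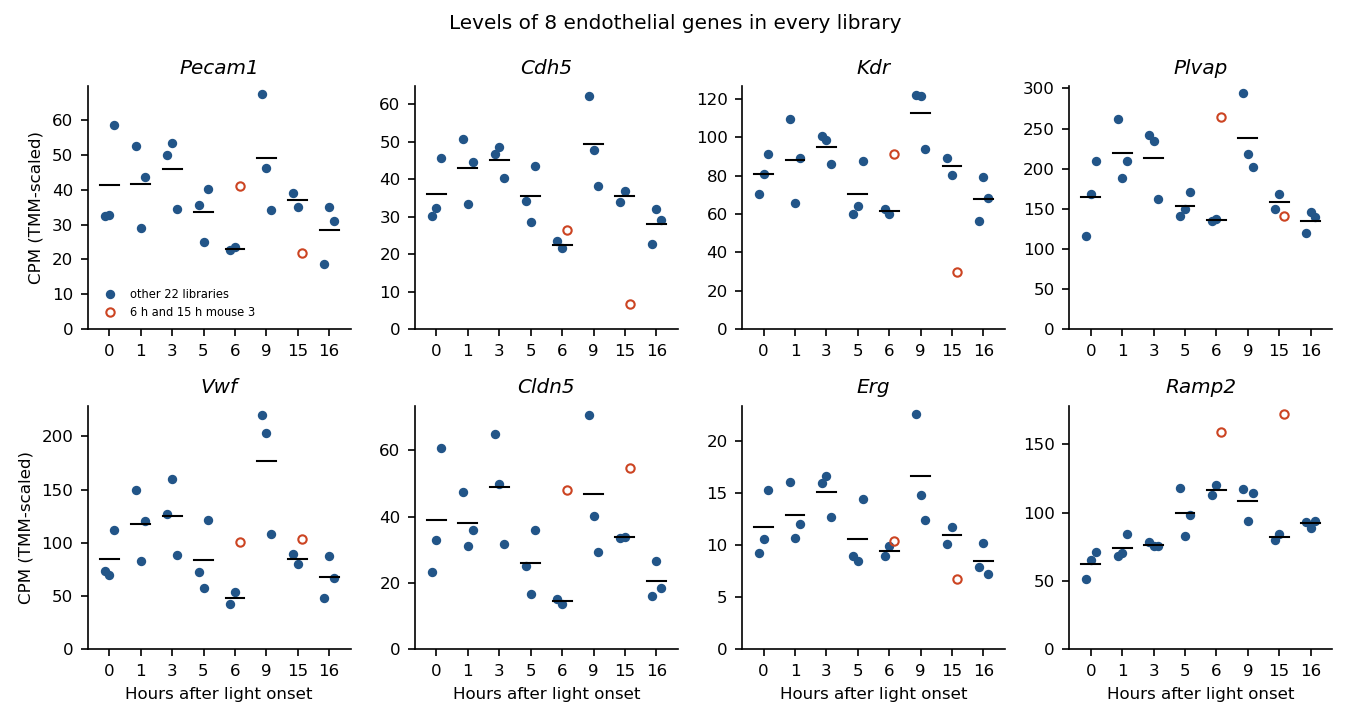
CPM of 8 members in every library by hours after light onset (linear axis from 0). Filled points are the 22 libraries, with a bar at their mean for each time, and open points are 6 h mouse 3 and 15 h mouse 3. Pecam1, Cdh5, Kdr, Plvap, Vwf, Cldn5 and Erg have their lowest or near-lowest means at 6 h and 16 h, whereas Ramp2 is lowest at 0 h.

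Kdr (VEGFR2), the main signalling receptor for vascular endothelial growth factor, was at 70.3, 80.8 and 91.3 CPM at 0 h, 109, 65.6 and 89.2 CPM at 1 h and 100.7, 98.4 and 85.9 CPM at 3 h. Kdr stood at 60.1, 64.2 and 87.5 CPM at 5 h and 62.7, 60.3 and 91.5 CPM at 6 h. It was at 122, 122 and 94.1 CPM at 9 h, 89.3, 80.6 and 29.8 CPM at 15 h and 56.2, 79.2 and 68.3 CPM at 16 h. All 3 mice of 9 h were above all 3 of 0 h, and adjusted p over time was 0.417 with 24 libraries and 0.051 with 22. Flt1 (VEGFR1), a receptor that also traps the growth factor, was at 41.3, 58.7 and 81.8 CPM at 0 h, 94.5, 55.1 and 73.96 CPM at 1 h and 75.2, 78.9 and 63.7 CPM at 3 h. The values of Flt1 were 49.6, 44.6 and 70.7 CPM for 5 h and 42.2, 40.1 and 64.2 CPM for 6 h. At 9 h it was at 114, 92.99 and 68.6 CPM, at 15 h at 71.8, 72.7 and 35.5 CPM and at 16 h at 41.1, 57.2 and 57.8 CPM. Of the 3 mice of 9 h, 1 overlapped with 0 h, and adjusted p was 0.34 with 24 libraries and 0.122 with 22. Tek (Tie2), the receptor of the angiopoietins, was at 22.2, 24.4 and 35.1 CPM at 0 h, 35.1, 20.3 and 27.1 CPM at 1 h and 37.9, 32.7 and 30.6 CPM at 3 h. At 5 h it stood at 21.6, 18.6 and 29.03 CPM and at 6 h at 16.4, 13.5 and 27.3 CPM. Later it was at 42.8, 32.3 and 27.9 CPM at 9 h, 28.001, 22.9 and 12.6 CPM at 15 h and 13.1, 20.9 and 20.3 CPM at 16 h. Its lowest values came from 6 h, from 15 h mouse 3 and from 16 h mouse 1, and it varied over time with 22 libraries (adjusted p = 0.0401) but not with 24 (0.266). Tie1, the receptor that partners Tek, ranged from 33.4 to 99.7 CPM over the 22 libraries and Ptprb, the phosphatase that acts on Tek, from 26.8 to 142 CPM. Tie1 varied over time with 22 libraries (adjusted p = 0.0381) and not with 24 (0.167), and Ptprb, with the wider spread, did not pass (0.211 with 22 and 0.384 with 24).

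Ramp2 was at 51.6, 65.4 and 70.9 CPM at 0 h, 67.9, 70.5 and 84.04 CPM at 1 h and 78.7, 75.2 and 75.4 CPM at 3 h. Ramp2 stood at 118, 82.99 and 98.4 CPM at 5 h and 113, 120.2 and 159 CPM at 6 h. It was at 117, 93.9 and 114 CPM at 9 h, 79.7, 84.3 and 172 CPM at 15 h and 93.2, 88.9 and 93.9 CPM at 16 h. All mice of 5, 6, 9, 15 and 16 h were above all 3 mice of 0 h, and the 2 libraries that stood apart held its highest values. Over time it varied with 22 libraries (adjusted p = 0.000429) and not with 24 (0.0925). With 22 libraries the log2 fold change against 0 h was 0.67 at 5 h (SE 0.12, adjusted p = 0.0025), 0.91 at 6 h (SE 0.13, 0.000428) and 0.80 at 9 h (SE 0.12, 0.000268). At 16 h it was 0.56 (SE 0.12, 0.0143), while the values at 1 h (0.25, SE 0.12), 3 h (0.29, SE 0.12) and 15 h (0.38, SE 0.13) did not pass. With 24 libraries the corresponding values were 0.67 at 5 h (SE 0.22), 1.06 at 6 h (SE 0.22), 0.79 at 9 h (SE 0.22) and 0.56 at 16 h (SE 0.22), with adjusted p of 0.431, 0.0608, 0.116 and 0.643.

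A curve with a 24 h period was fitted to each gene as a test of a daily shape over the hours sampled, which do not show whether the shape recurs. Of the 31 members 1 passed with 24 libraries, Ramp2, against 1.67% of all genes, and the same gene was the 1 that passed with 22, against 6.12% of all genes. Its fitted maximum exceeded its minimum by a log2 ratio of 1.04 (jackknife SE 0.20) with the maximum at 10.2 h (SE 0.88 h) and adjusted p = 0.0171 with 24 libraries. With 22 the ratio was 0.90 (SE 0.16), the maximum lay at 9.6 h (SE 0.45 h) and adjusted p was 0.000226. The fitted minimum fell between 16 h and the next light onset, where no mouse was sampled, so both ratios rest on extrapolation. The highest mean of a sampled time was at 6 h (131 CPM with 24 libraries). Leaving out any 1 of the 24 libraries gave adjusted p between 0.000584 and 0.0443. DESeq2 and limma voom with sample quality weights also called 1 member each, Ramp2, against 4.22% and 9.14% of all genes. Ramp2 shares 1103 of its 3301 exonic bases (33.4%) with Vps25 on the same strand, at GRCm38 chromosome 11, 101246028 to 101259546. Those bases make up 67.2% of the exonic bases of Vps25, a subunit of the ESCRT-II sorting complex, which was listed at 0.36 to 1.44 CPM in the 22 libraries. How reads in shared bases were counted is not given in the sources used here, so the values of Ramp2 are less certain, and no part of its pattern can be assigned to either gene. Calcrl, the receptor Ramp2 pairs with, averaged 12.9 CPM and did not pass over time (adjusted p = 0.0922 with 22 libraries and 0.479 with 24).

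S1pr1, the sphingosine-1-phosphate receptor of vessel stability, was at 31.4, 25.7 and 25.8 CPM at 9 h, against 18.5, 17.8 and 20.3 CPM at 0 h, with no overlap. Its log2 fold change at 9 h against 0 h was 0.56 (SE 0.16, adjusted p = 0.028) with 22 libraries and 0.55 (SE 0.17, adjusted p = 0.202) with 24. Over time it varied with 22 libraries (adjusted p = 0.0421) and not with 24 (0.248). Aplnr was at 1.26, 1.202 and 1.16 CPM at 0 h, 0.826, 1.43 and 0.618 CPM at 1 h and 0.999, 1.61 and 1.47 CPM at 3 h. The values of Aplnr were 1.31, 1.42 and 1.03 CPM for 5 h and 0.448, 1.32 and 0.756 CPM for 6 h. It was at 2.38, 1.599 and 1.12 CPM at 9 h, 1.800, 0.331 and 0.991 CPM at 15 h and 0.425, 0.457 and 0.723 CPM at 16 h. The 3 values of 16 h lay below those of 0, 3, 5 and 9 h, but the tests were not passed (adjusted p over time 0.4 with 24 libraries and 0.295 with 22), at the lowest depth of any member. Eng ranged from 118 to 257 CPM over the 22 libraries, Clec14a, a C-type lectin of vessel sprouting, from 14.5 to 63.3 CPM, Robo4 from 9.40 to 23.04 CPM and Adgrl4, an adhesion G protein-coupled receptor, from 7.67 to 20.9 CPM. Of these 4, Clec14a varied over time with 22 libraries (adjusted p = 0.0261) and not with 24 (0.176).

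Erg was at 9.23, 10.6 and 15.3 CPM at 0 h, 15.99, 10.7 and 11.997 CPM at 1 h and 15.9, 16.6 and 12.7 CPM at 3 h. At 5 h it stood at 8.97, 8.48 and 14.4 CPM and at 6 h at 8.89, 9.94 and 10.3 CPM. It was at 22.6, 14.8 and 12.4 CPM at 9 h, 10.1, 11.7 and 6.76 CPM at 15 h and 7.84, 10.2 and 7.23 CPM at 16 h. The highest library was 9 h mouse 1, and adjusted p over time was 0.203 with 24 libraries and 0.0702 with 22. Sox17, a factor of arterial endothelium, was at 5.75, 12.2 and 16.2 CPM at 0 h, 16.8, 8.01 and 15.3 CPM at 1 h and 16.1, 16.8 and 9.74 CPM at 3 h. Sox17 stood at 8.68, 6.31 and 8.81 CPM at 5 h and 5.37, 6.603 and 13.5 CPM at 6 h. Later it was at 26.3, 12.6 and 8.01 CPM at 9 h, 10.6, 11.98 and 1.71 CPM at 15 h and 6.08, 11.3 and 8.39 CPM at 16 h. Its highest library was 9 h mouse 1 and its lowest 15 h mouse 3, mice of one time lay far apart, and it did not pass (adjusted p = 0.658 with 24 libraries and 0.323 with 22). Sox7 and Sox18, the other SOX members, ranged from 2.97 to 12.7 CPM and 19.0 to 49.7 CPM over the 22 libraries and did not pass either (0.251 and 0.133 with 22, 0.835 and 0.584 with 24). Of the 4 transcription factors 0 were called over time by edgeR with 24 or 22 libraries, where 1.08% and 15.6% of all genes were, although Erg had an unadjusted p of 0.0164 and 0.013. Other tools called some of them. DESeq2 called Erg with 24 libraries (adjusted p = 0.032, 10.7% of all genes), and Erg (0.0061) and Sox18 (0.00275) with 22 (24% of all genes). Limma voom with quality weights called all 4 with 24 libraries, at adjusted p of 0.00427 for Erg, 0.0287 for Sox7, 0.0235 for Sox17 and 0.000666 for Sox18, where 48.5% of all genes were called. With 22 it called Erg (0.00806), Sox7 (0.0494) and Sox18 (0.0044), where 36.6% of all genes were called, and edgeR without the filter on low counts called all 4 (15.5% of all genes).

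Vwf, the clotting factor that endothelial cells store and secrete, was at 72.96, 69.2 and 112 CPM at 0 h, 149.7, 83.04 and 120.3 CPM at 1 h and 127, 160.3 and 88.01 CPM at 3 h. The values of Vwf were 72.3, 57.4 and 121 CPM for 5 h and 42.2, 53.8 and 100.3 CPM for 6 h. It was at 219.8, 204 and 108 CPM at 9 h, 89.03, 79.8 and 104 CPM at 15 h and 48.1, 87.1 and 66.8 CPM at 16 h. At 9 h against 0 h its log2 fold change was 1.07 (SE 0.36, adjusted p = 0.0842) with 22 libraries and 1.06 (SE 0.355, adjusted p = 0.246) with 24, the largest of the members at that time. Of the mice of 9 h, 1 lay within the range of 0 h. Over time Vwf varied with 22 libraries (adjusted p = 0.0476) and not with 24 (0.149). Egfl7 ranged from 29.9 to 108 CPM over the 22 libraries and Mmrn2, a matrix protein that binds Clec14a, from 23.6 to 67.0 CPM, and Egfl7 varied over time with 22 libraries (adjusted p = 0.04) and not with 24 (0.267), while Mmrn2 did not pass (0.0617 and 0.356).

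Plvap was at 117, 168 and 209.5 CPM at 0 h, 261, 188 and 209 CPM at 1 h and 242, 234 and 162 CPM at 3 h. At 5 h it stood at 141, 149 and 171 CPM and at 6 h at 135, 137 and 264 CPM. It was at 294, 219 and 202 CPM at 9 h, 149.7, 168 and 142 CPM at 15 h and 120.5, 146 and 140.2 CPM at 16 h. The 5 night libraries among the 22 lay between 120.5 and 168 CPM and overlapped with 0 h, 3 h, 5 h and 6 h, whereas all of 1 h and 9 h were above them. Mouse 1 of 0 h was below all 5. It varied over time with 22 libraries (adjusted p = 0.0497) and not with 24 (0.244). Nos3, the endothelial nitric oxide synthase, was at 8.87, 10.1 and 16.1 CPM at 0 h, 14.2, 12.9 and 15.6 CPM at 1 h and 14.9, 16.6 and 9.35 CPM at 3 h. Nos3 stood at 13.5, 6.81 and 13.9 CPM at 5 h and 7.48, 6.16 and 15.8 CPM at 6 h. It was at 24, 16.8 and 11.7 CPM at 9 h, 13.8, 13.3 and 1.802 CPM at 15 h and 7.897, 13.2 and 11.1 CPM at 16 h. Mice 1 and 2 of 6 h lay below all of 0 h and 15 h mouse 3 was the lowest of the 24, and adjusted p was 0.82 with 24 libraries and 0.215 with 22. Rasip1, which Ras-family proteins bind during vessel lumen formation, ranged from 4.84 to 21.4 CPM and Ecscr, an endothelial surface protein, from 2.82 to 8.94 CPM over the 22 libraries, and neither was called (0.0557 and 0.226 with 22, 0.271 and 0.429 with 24). Rasip1 shares 42.9% of its exonic bases with other annotated genes, Nos3 32.3%, Sox17 16.8% and Egfl7 11.2%, and with libraries that do not mark strand their values are less certain.

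Over time as a whole, edgeR called 0 of the 31 members with 24 libraries, against 1.08% of all genes. Before adjustment, 11 members were below 0.05 (17% of all genes). The count by DESeq2 was 6 (10.7% of all genes) and by limma voom with sample quality weights 30 (48.5% of all genes). With 22 libraries edgeR called 12 of 31, against 15.6% of all genes. These were the 12 given above, Cdh5, Esam, Icam2, Podxl, Tek, Tie1, S1pr1, Ramp2, Clec14a, Vwf, Egfl7 and Plvap. The count moved with the method on the same 22 libraries: 11 with DESeq2 size factors in edgeR (15.8% of all genes), 4 with the mouse number as a block (14.5%), 25 by DESeq2 (24%), 29 by limma voom with quality weights (36.6%) and 30 without the filter on low counts (15.5%). Without the filter the F test over time gave Vwf an adjusted p of 1.04e-114, against 0.0476 with it. Its log2 fold change was 1.06 and 1.07 in these fits. The share without the filter is over 32019 genes, against 18388 with it. The counts without the filter on 22 libraries, here and elsewhere, are therefore not comparable with the others, and the cause was not tested. Leaving out 1 more library gave 2 to 19 called members, 2 without 6 h mouse 1 and likewise without 6 h mouse 2, and 19 without 5 h mouse 3. The share of all genes called in each of these fits is not given here. These counts therefore do not show whether the members changed more than other genes did. Ramp2 and Icam2 were called in all 22 of these fits, Esam in 20 and Clec14a in 16, while Plvap was called in 4.

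**Figure D3:**
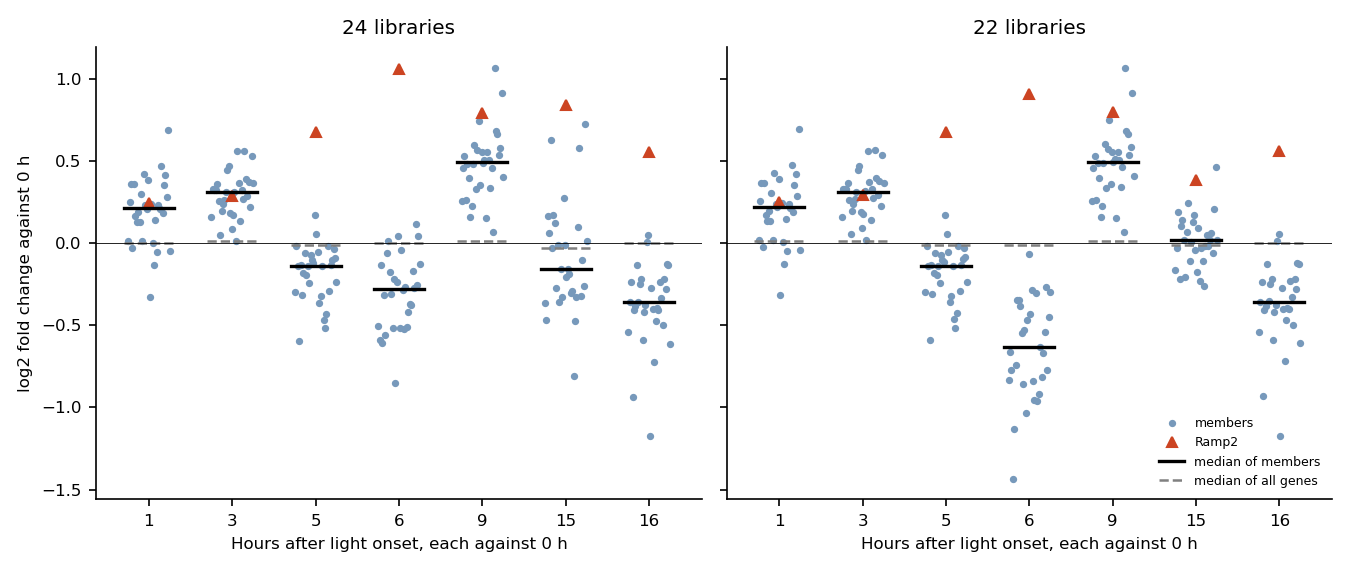
Log2 fold change against 0 h of each member at the 7 later times (edgeR), with 24 libraries on the left and 22 on the right. Black bars are the medians of the 31 members, dashed bars the medians of all genes and triangles Ramp2: the members' median at 6 h is -0.28 with 24 libraries and -0.63 with 22, and at 9 h 0.49 in both.

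Each later time was also set against 0 h, and these 7 comparisons share the 3 libraries of 0 h. With 24 libraries the median log2 fold change of the 31 members was 0.21 at 1 h, 0.31 at 3 h, -0.14 at 5 h, -0.28 at 6 h, 0.49 at 9 h, -0.16 at 15 h and -0.36 at 16 h, while that of all genes lay between -0.03 and 0.01. The values of all 31 members were positive at 3 and 9 h, and 28 of 31 were negative at 5 and 16 h. With 22 libraries the median was -0.63 at 6 h, where 30 of 31 values were negative, and 0.02 at 15 h, where 17 were positive. Single members rarely passed. With 24 libraries edgeR called 0 members at each of the 7 times, against 0.0111% of all genes at 1 h, 0% at 3 h, 0.111% at 5 h, 0.166% at 6 h, 0.747% at 9 h, 0.41% at 15 h and 0.116% at 16 h. At an unadjusted p under 0.05 there was 1 member at 1 h (3.94% of all genes), 0 at 3 h (3.05%), 1 at 5 h (6.31%), 2 at 6 h (8.96%), 6 at 9 h (9.62%), 1 at 15 h (25.8%) and 2 at 16 h (5.74%). DESeq2 called 1 member at 6 h (0.963% of all genes), 1 at 9 h (1.99%) and 1 at 15 h (10.3%). Its count was 0 for 1 h (0.0609%), 3 h (0.0277%), 5 h (0.769%) and 16 h (0.72%). Limma voom with quality weights called 5 members at 1 h (11.7% of all genes), 0 at 3 h (1.99%), 1 at 5 h (8.9%), 13 at 6 h (23.9%), 16 at 9 h (19.3%), 0 at 15 h (8.89%) and 1 at 16 h (8.69%). At 6 h edgeR called 1 member without the filter on low counts (0.0498% of all genes) and 1 with the mouse number as a block (0.122%).

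With 22 libraries edgeR called 1 member at 5 h (2.9% of all genes), 2 at 6 h (2.35%), 2 at 9 h (8.1%) and 1 at 16 h (2.18%), namely Ramp2 at each of these times, Icam2 at 6 h and S1pr1 at 9 h. It called 0 at 1 h (0.337% of all genes), 3 h (0.299%) and 15 h (1.41%), where 3, 1 and 1 members had an unadjusted p under 0.05 (13.1%, 10.3% and 15.4% of all genes). At these 3 times DESeq2 also called 0 on the 22 libraries (1.45%, 1.16% and 3.27% of all genes), and limma voom with quality weights called 6 at 1 h (11.8%) and 0 at 3 h (3.3%) and 15 h (8.9%). At the times with calls the tools differed on the 22 libraries. DESeq2 called 1 member at 5 h (4.67% of all genes), 7 at 6 h (4.25%), 5 at 9 h (10.4%) and 1 at 16 h (3.77%). Limma voom with quality weights called 1 at 5 h (9.6%), 1 at 6 h (4.1%), 16 at 9 h (19.3%) and 2 at 16 h (10.3%). Without the filter on low counts edgeR called 6 at 1 h (2.76% of all genes), 7 at 3 h (1.93%), 5 at 5 h (4.02%) and 24 at 6 h (3.92%). It then called 19 at 9 h (7.31%), 1 at 15 h (3.53%) and 13 at 16 h (3.47%).

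The members were also compared by whether the values of 2 times overlapped, for pairs of times picked after the values were seen. Because most members were high or low together, the counts of members below are not counts of separate observations. All 9 h libraries were above mice 1 and 2 of 6 h for 29 of 31 members, all but Aplnr and Ramp2, against 20.5% of all genes. With 6 h mouse 3 included, the count was 10, against 8.72% of all genes. Mice 1 and 2 of 6 h lay below all of 0 h for 21 members (17% of all genes), and with mouse 3 included for 1, Cdh5 (9.88%). The other 2 pairs of times hold neither library that stood apart. The 3 libraries of 16 h lay below the 3 of 9 h for 24 members (15.5% of all genes). All of 9 h lay above all of 0 h for 5 members, Icam2, Kdr, S1pr1, Ramp2 and Rasip1, against 12.9% of all genes.

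Night (15 h and 16 h) was lower than day (1 to 9 h) in the fitted value of 28 of the 31 members with 24 libraries, with a median log2 difference of -0.36, against -0.01 over all genes. No difference passed in edgeR: 0 of 31 were called, against 1.39% of all genes, and 11 had an unadjusted p under 0.05 (17.8% of all genes). DESeq2 called 1 member, Tie1 (3.6% of all genes), and limma voom with quality weights 7 (14.1%). With 22 libraries 29 values were negative with a median of -0.21, again 0 were called (4.63% of all genes) and 5 had an unadjusted p under 0.05 (17.6%), while DESeq2 called 1 (6.43%) and limma voom with quality weights 4 (11%). Without the filter on low counts, edgeR called 10 on the 22 libraries, all lower at night (4.61% of all genes). The times within night and within day were not alike. With 22 libraries the members' median log2 fold change against 0 h was 0.02 at 15 h and -0.36 at 16 h. In the day it was -0.63 at 6 h and 0.49 at 9 h. Plvap had a log2 difference of -0.46 (SE 0.15, adjusted p = 0.134) with 24 libraries and -0.36 (SE 0.14, adjusted p = 0.176) with 22. For Tie1 it was -0.52 (SE 0.16, adjusted p = 0.124) and -0.38 (SE 0.16, adjusted p = 0.237).

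The way the members moved together was measured as the correlation of each with Pecam1 over the 22 libraries, on log2 CPM, for the 30 other members and genes of other cell types. Of the 30 members, 28 were positively correlated at an adjusted p under 0.05 (permutation test with 100000 resamples, 38 genes in the family), with a median Pearson r of 0.88, and 25 had an r over 0.8. Cdh5 had r = 0.94 and Spearman's rho = 0.93, and Ptprb r = 0.94 and rho = 0.95, each with permutation p = 1e-05, the smallest these resamples can give. Plvap had r = 0.83 (permutation p = 1e-05, adjusted 1.58e-05) and rho = 0.82 (permutation p = 2e-05). The exceptions were Aplnr, with r = 0.40 (permutation p = 0.0624, adjusted 0.0697) and rho = 0.28 (permutation p = 0.202), and Ramp2, with r = -0.17 (permutation p = 0.441, adjusted 0.466) and rho = -0.14 (permutation p = 0.533). Without 16 h mouse 1 and 9 h mouse 1, which lay farthest from the median of Pecam1, the same count of 28 passed and the median r was 0.87. The values within times, taken as deviations from the mean of each time, gave 28 again with a median r of 0.86, and with all 24 libraries the median fell to 0.80 with 28 passing. The permutations within times shuffled all 22 deviations freely, although these were centred on each time. Their p-values, here and below, can therefore be too small, above all for the weaker correlations. Over the 465 pairs of members the median r was 0.85 (range -0.40 to 0.97) and 311 pairs exceeded 0.8. All points share library preparation and scaling, and among all 18065 genes tested the median r with Pecam1 was -0.01 and 0.609% exceeded 0.8.

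**Figure D4:**
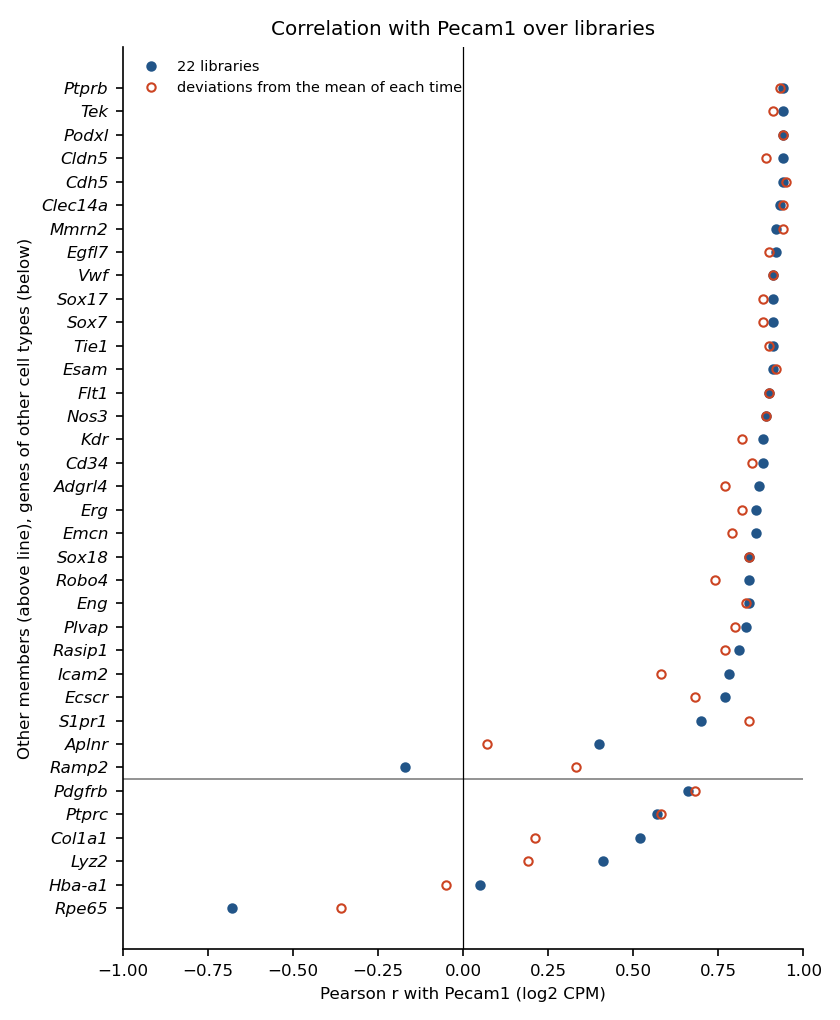
Pearson r with Pecam1 of 30 members (above the line) and 6 genes of other cell types (below), over 22 libraries (filled) and after subtracting the mean of each time (open). The members other than Aplnr and Ramp2 lie between 0.70 and 0.94 over the 22 libraries, and Rpe65 lies at -0.68.

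Genes of other cell types were set beside these values. Pdgfrb, of pericytes, had r = 0.66 with Pecam1 (rho = 0.72, permutation p = 0.00066 for r) and 0.68 within times, and Ptprc, of leukocytes, had r = 0.57 (rho = 0.53, permutation p = 0.00513 for r) and 0.58 within times. Col1a1, of fibroblasts, had r = 0.52 (rho = 0.47, permutation p = 0.0138 for r), but 0.21 within times (adjusted permutation p = 0.38) and 0.45 without the 2 libraries farthest from the median (0.0561). Rpe65, of the RPE, had r = -0.68 (rho = -0.68, permutation p = 0.00066 for r) and -0.36 within times (adjusted permutation p = 0.127). Lyz2, of myeloid cells (r = 0.41, rho = 0.32), and Hba-a1, of red blood cells (r = 0.05, rho = 0.02), did not pass, with adjusted permutation p of 0.0634 and 0.813 for r. Over whole lists the median r with Pecam1 was 0.41 for mural, 0.41 for fibroblast and 0.45 for leukocyte genes. Over the RPE genes it was -0.45. Pdgfrb, Col1a1, Ptprc and Rpe65 were thus each more extreme than the median of their list. The summed level of the 8 RPE genes was 44700 to 46500 CPM in the 2 remaining mice of 6 h and 40300 to 48700 CPM at 16 h, where the members were low. It was 36600 to 41200 CPM at 9 h, 33400 to 37200 CPM at 3 h and 33900 to 40700 CPM at 0 h. The RPE sum was 33600 to 41100 CPM at 1 h, 41300 to 45500 CPM at 5 h and 36900 to 39900 CPM in the 2 remaining mice of 15 h. The 11 mural genes summed to 590 to 674 CPM at 6 h and 754 to 934 CPM at 9 h, the 10 fibroblast genes to 1530 to 1820 CPM at 6 h and 1790 to 2220 CPM at 9 h, and the 12 leukocyte genes to 2160 to 2320 CPM at 6 h and 2650 to 3060 CPM at 9 h. In the 2 remaining mice of 15 h the mural genes summed to 889 to 896 CPM, within their range at 9 h. The fibroblast genes then summed to 1810 to 2000 CPM, the leukocyte genes to 2150 to 2340 CPM and the members to 1430 to 1440 CPM. No gene of these 4 lists was at 0 over the libraries. Such sums weigh the highest genes most, such as Lyz2 (mean 1360 CPM) among the leukocyte genes and Dcn (827 CPM) among the fibroblast genes. The part of RPE, mural, fibroblast or leukocyte content in the members' differences was not tested. The 6 red blood cell genes summed to 400 to 1930 CPM over the 22 libraries, with a median r with Pecam1 of -0.02 over the list.

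Another list held 69 endothelial genes outside the set. Over time edgeR called 0 of 69 with 24 libraries (1.08% of all genes), with 15 below 0.05 before adjustment (17%). The counts were 9 by DESeq2 (10.7% of all genes) and 59 by limma voom with quality weights (48.5%). With 22 libraries edgeR called 29 (15.6% of all genes). A daily shape passed for 0 with 24 libraries (1.67%) and 3 with 22 (6.12%). Of the 69, 23 had an r over 0.8 with Pecam1 over the 22 libraries, with a median of 0.72. For the 5 with the lowest adjusted p over time with 22 libraries, the largest difference from 0 h at any time is given. Thbd (thrombomodulin, an anticoagulant receptor) differed most from 0 h by a log2 fold change of -0.63 (adjusted p = 0.000127) and Tspan18 by -0.43 (0.000524). Exoc3l2 (0.60, 0.00101) and Flt4, the VEGF-C receptor (0.60, 0.00291), had their largest difference upward, and Lmo2, a transcription cofactor, downward (-0.65, 0.00172). Yet Exoc3l2, Flt4 and Lmo2 were all lower at 6 h than at 0 h (-0.57, -0.38 and -0.59). All were higher at 9 h (0.60, 0.60 and 0.34), the signs of most members at these times. Thbd (-0.63 and -0.45) and Tspan18 (-0.22 and -0.10) were lower at both times. Not all of these differences passed on their own. Of 12 genes of the tight vessels of the retina 11 were tested, 2 were called over time with 24 libraries (1.08% of all genes), Mfsd2a (adjusted p = 0.0193) and Slco1c1 (0.0306), and 7 with 22 (15.6%), and the median of r with Pecam1 over the 11 was 0.19. Beside the same shares of all genes, the RPE list of 8 had 1 called gene with 24 libraries and 4 with 22, the fibroblast list of 10 had 0 and 5, the leukocyte list of 12 had 0 and 6, the mural list of 11 had 0 and 3, and the red blood cell list of 6 had 0 in both.

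**Figure D5:**
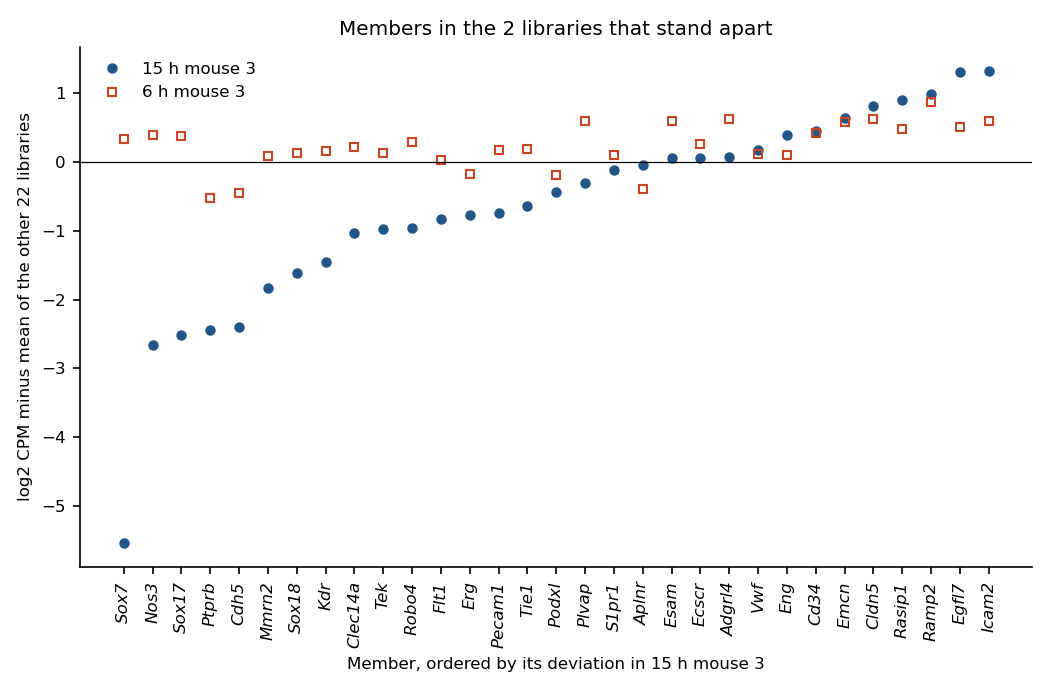
Deviation of each member in 15 h mouse 3 (filled) and 6 h mouse 3 (open) from its mean over the other 22 libraries, in log2 CPM, with members ordered by the value in 15 h mouse 3. In 15 h mouse 3 the members spread from -5.54 for Sox7 to 1.33 for Icam2, and in 6 h mouse 3 from -0.52 for Ptprb to 0.88 for Ramp2. Sox7 had 0 counts in 15 h mouse 3, so its value there depends on the prior count of 2. The next lowest was Nos3 at -2.66.

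In the 2 libraries that stood apart the members' deviations had both signs. In 15 h mouse 3 the median deviation of the members from their mean over the 22 libraries was -0.43, with 12 above and 19 below, and in 6 h mouse 3 it was 0.22, with 26 above and 5 below. Genes of other cell types moved there too. The RPE genes summed to 112000 CPM in 15 h mouse 3 and 52500 CPM in 6 h mouse 3, against 33400 to 48700 CPM in the 22 libraries. The red blood cell genes summed to 8770 and 3330 CPM in these libraries, against 400 to 1930 CPM, and the leukocyte genes to 3130 and 3560 CPM, against 2150 to 3060 CPM. The mural genes (880 and 734 CPM, against 590 to 934 CPM) and the fibroblast genes (1670 and 2090 CPM, against 1510 to 2240 CPM) lay within their ranges. The part of these cell types in the members' deviations was not tested. Sox7 had 0 counts in 15 h mouse 3, where 3 counts correspond to 0.27 CPM, against 2.97 to 12.7 CPM in the 22 libraries. In the same library Icam2 was at 19.6 CPM, against 3.52 to 12.9 CPM, and Egfl7 at 121 CPM, against 29.9 to 108 CPM, while Cdh5 at 6.76 CPM lay below its range of 21.6 to 62.1 CPM. Divided at the median gene length of 4132 bases, the 15 shorter members had a median deviation of 0.06 in 15 h mouse 3 and the 16 longer ones -0.89. In 6 h mouse 3 the medians were 0.34 and 0.19. Spearman's rho of deviation against gene length was -0.26 over the members and -0.32 over all genes in 15 h mouse 3, and -0.39 and -0.41 in 6 h mouse 3. Across genes these are descriptions, since genes of one library are not replicates. The TMM factor was 0.729 for 15 h mouse 3 and 0.966 to 1.052 for the other 23 libraries.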

How the data were processed

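The values are read counts per gene in 24 libraries of total RNA, deposited by the authors as 1 table with no normalization. STAR, HTSeq and mm10 appear, with no version or setting, in the submitters' processing notes, so the counting of reads shared by overlapping genes is unknown here. The library kit does not mark strand. Libraries held 14073440 to 17492470 counts, and the precision of a low gene such as Aplnr is limited by its few counts. From the counts, 18065 of 54532 genes (99.92% of the counts) passed edgeR's filterByExpr with a minimum count of 10, and 18388 passed with 22 libraries. Levels are CPM with TMM scaling.

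Tests were edgeR's quasi-likelihood F tests (edgeR 4.0.16, R 4.3.3) on the whole table, with p-values adjusted by Benjamini-Hochberg over all genes and called under 0.05. They covered an F test over the 8 times, a curve with a 24 h period, night against day and each later time against 0 h. Correlations used log2 CPM with a prior count of 2 and 100000 permutations (Python 3.11.15, numpy 2.4.6, scipy 1.17.1), adjusted over 38 genes, of which 2 are not reported here. Alternatives were DESeq2 1.42.0, limma 3.58.1 (voom with sample quality weights), other scaling, no filter, a block for the mouse number and leaving out libraries. Code was tested on simulated data. No 2 libraries agreed within sampling noise: the lowest chi-square per degree of freedom over 276 pairs was 6.08.

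The members and gene lists were chosen with earlier results of these data known. Values per library are given for a list of 12 members, for any member called with 24 libraries, for the 3 with the lowest adjusted p over time with 22 libraries, and for S1pr1 at 2 times because it was called there. Of the other endothelial genes, the 5 with the lowest adjusted p are named, and Calcrl and the called barrier genes were named after their values were seen.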

Additional observations from a re-analysis of the deposited data

How the results depend on the processing

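With 24 libraries and edgeR, 0 members varied over time, against 12 with 22 libraries, 6 by DESeq2 and 30 by limma voom with quality weights. Night against day gave 0, against 1 by DESeq2 and 7 by limma voom. Against 0 h, where edgeR with 24 libraries called 0 at every time, limma voom called 5 at 1 h, 1 at 5 h, 13 at 6 h, 16 at 9 h and 1 at 16 h. DESeq2 called 1 at each of 6, 9 and 15 h, no filter gave 1 at 6 h (0.0498% of all genes), and the 22 libraries gave 1 at 5 h, 2 at 6 h, 2 at 9 h and 1 at 16 h. The count of 12 over time with 22 libraries became 30 without a filter, 4 with a replicate block, 25 by DESeq2 and 29 by limma voom. The counts without a filter on 22 libraries are not comparable with the others, since that fit gave adjusted p down to 1.04e-114 over time. With the 22 libraries, night against day gave 0 in edgeR, 10 without a filter, 1 by DESeq2 and 4 by limma voom. Against 0 h, no filter on these 22 gave 6 at 1 h, 7 at 3 h, 5 at 5 h, 24 at 6 h, 19 at 9 h, 1 at 15 h and 13 at 16 h. DESeq2 gave 7 at 6 h and 5 at 9 h, and limma voom 6 at 1 h, 1 at 6 h, 16 at 9 h and 2 at 16 h. The share of all genes stands beside each of these counts in the results. These alternatives on 22 libraries, and leaving out 1 of the 22, were chosen after seeing the data, and the cause of the differences was not tested. Over time, DESeq2 size factors in edgeR gave 0 with 24 libraries (195 of 18065 genes) and 11 with 22 (15.8% of all genes).

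Leaving out 1 of the 24 libraries gave 0 to 2 members over time (1 without 15 h mouse 1, 1 without 15 h mouse 2 and 2 without 15 h mouse 3). It gave 0 to 1 for night against day (1 without 15 h mouse 2) and 0 to 1 at 5 h and at 9 h (1 without 15 h mouse 3). At 6 h the range was 0 to 1 (1 without any of the 15 h mice), at 15 h 0 to 1 (1 without mouse 1 or mouse 2 of 15 h), and 0 at 1, 3 and 16 h. Leaving out 1 of the 22 gave 2 to 19 over time. For the counts with 1 library left out, the share of all genes is not given, so they are not read as results about the members. The 24 h curve called 1 member in all of these fits, and the correlation with Pecam1 passed for 30 to 32 of 38 genes under every setting tried. The largest difference from 0 h in the test over time is taken at whichever time it is largest in size, and that time can differ between fits. A change of its sign is therefore not a reversal at a given time. It changed sign for some called members: Esam was -0.77 in edgeR with 22 libraries but 0.67 by limma voom with 24 and 0.68 with 22. Clec14a was -0.96 in edgeR with 22 but 0.81 by limma voom with 22. Nos3 was -0.73 by limma voom with 24 libraries and 0.69 with 22, and Icam2 was -1.13 (called) in edgeR with 22 and 0.63 (not called) with 24.

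Mice share numbers 1 to 3 between times, but only 17 of 84 same-number pairs of libraries had a correlation of deviations over 0.1 (median 0.02, against -0.01 for different numbers), so the numbers were not taken to pair mice. With the replicate block 0 members varied over time with 24 libraries (lowest adjusted p = 0.0704), where 143 of 18065 genes were called. In that fit 1 member had a 24 h component (266 of 18065 genes) and 1 was called at 6 h (0.122% of all genes). The calls of the block at the other times and for night against day stayed at 0. Over all 18065 genes the block called 226 for night against day, 2 at 1 h, 1 at 3 h and 12 at 5 h. At 9, 15 and 16 h it called 87, 60 and 23 genes.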
